A study of Mus musculus with 6 samples.

Results

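Skeletal muscle and sarcomere transcripts were examined in RNA-seq counts from 6 samples labelled whole brain, taken from mouse embryos at E15.5. The module was a list of 38 gene symbols chosen for what the genes are known to do: myogenic transcription factors and a fusion protein, myosin heavy and light chains, actins and actinins, giant and binding proteins of the sarcomere, troponins, creatine kinase and desmin, subunits of the muscle acetylcholine receptor, and calcium handling proteins. Of the 38 symbols, 34 had at least 1 RefSeq transcript ID in the tables, which gave 39 of the 23485 IDs counted, and 30 of these 39 reached 10 counts in at least 1 sample. Counts of Mybph, which codes for a myosin binding protein, and of Tnnt1, Tnnt2 and Tnnt3, which code for troponin T, were not analysed here. The study compared the sexes, with 3 female and 3 male samples of untreated wild-type C57BL/6 embryos. RNA of several embryos was pooled for each sample, and the embryos' sex had been read from the presence or absence of testicular cords, so that p-values measured the spread between pools. Total counts per sample ran from 4908565 to 10294443. On these unadjusted totals, 3 counts, the limit that a count of 0 allows, equalled 0.291 to 0.611 CPM. This floor covers counting error only. All other CPM are counts scaled to the TMM-adjusted total of the sample.

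The labelled tissue was checked against its defining markers. Tubb3, a neuronal tubulin, had 6707 to 19074 counts per sample, Neurod6, a transcription factor of cortical neurons, had 837 to 1754, and Nes, an intermediate filament of neural progenitors, had 2437 to 5624. The neuron list summed to 2795 to 3970 CPM and the neural progenitor list to 2458 to 2893 CPM. Neural transcripts were therefore present in all 6 samples, beside the muscle transcripts described here.

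Skeletal muscle fibres form when myoblasts, committed by the MyoD family of transcription factors, leave the cell cycle and fuse. The fibres then build sarcomeres, repeating units in which thick filaments of myosin pull on thin filaments of actin when calcium binds troponin. Developing fibres carry embryonic and perinatal myosin heavy chains, cardiac alpha actin and the gamma subunit of the acetylcholine receptor, and later exchange these for adult forms. In bulk RNA, fewer cells of a type and less RNA per cell cannot be told apart.

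How well a member was counted went with how many curated RefSeq transcripts its gene has. The 23 member genes with 1 accession in the RefSeq gene table had a median of 988 counts per sample, and 22 of them averaged at least 20 counts. The other 15 genes had several accessions, and the 11 of these with an ID had a median of 4.33 counts, taking the highest ID of each gene. Only Ttn and Myl1 among these 11 genes averaged 20 counts or more. The same division was seen over all genes, with a median of 36.2 counts for 14522 genes with 1 accession and 4.33 counts for 6415 genes with several. Neural markers differed among themselves: of the 4 with several accessions and an ID, 3 averaged 20 counts or more, such as Map2, a microtubule protein of dendrites, with 3170 to 5525 counts, while Snap25, a synaptic vesicle fusion protein, had at most 9 at any ID. How reads shared by overlapping transcripts were assigned is not given in the sources used here, and the part of this assignment in the low counts was not tested. Low counts of a member with several accessions were therefore not read as low expression, and isoforms were compared only between genes with 1 accession.

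**Figure D1:**
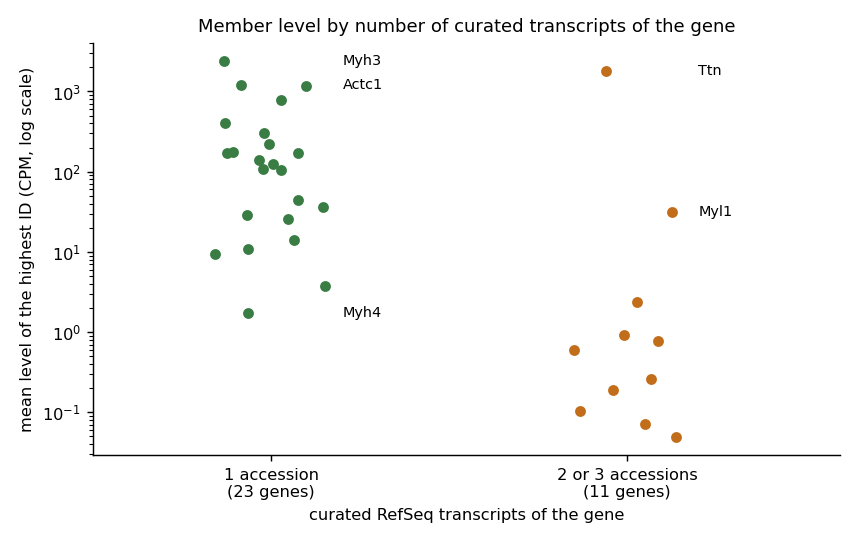
Each point is 1 member gene, at the mean level of its highest ID over the 6 samples (CPM, log scale), for genes with 1 curated RefSeq transcript and for genes with more. Most of the 23 genes with 1 accession lie above 9 of the 11 genes with several, and Ttn and Myl1 are the exceptions among the latter.

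All 4 myogenic transcription factors were detected in all 6 samples. Myog, which drives differentiation of committed myoblasts, was counted 718, 638 and 1390 times in the females (samples 1, 2 and 3, in this order throughout) and 1657, 891 and 1507 times in the males. Myod1, which commits cells to the myogenic lineage, had 306, 179 and 448 counts in the female samples and 563, 282 and 344 in the male samples. Male sample 1 was highest for both genes in CPM as well, and the sexes overlapped. Per kb of transcript, Myog stood at 95.0 ± 12.9 CPM (SD, n = 6) and Myod1 at 24.0 ± 4.80 CPM, and the ratio of Myog to Myod1 per kb lay between 2.94 in female sample 1 and 5.49 in male sample 3. Myf5, the first of the family to appear in the embryo, had 91, 58 and 163 counts in the female and 134, 100 and 123 in the male samples. Myf6, expressed in differentiating fibres, had 81, 33 and 126 counts in the female and 91, 70 and 124 in the male samples. Levels per kb of Myf5 (5.55 to 7.98 CPM) and Myf6 (5.27 to 10.5 CPM) overlapped, Myf6 being the higher in 5 of the 6 samples, and both lay under Myod1 in every sample. In counts, Myf5 was above Myf6 in every sample but male sample 3. The order of Myf5 and Myf6 thus depended on the lengths used, 2083 and 1248 bases. Mymk, a membrane protein needed for myoblast fusion, has several accessions. Its higher ID had 25, 12 and 13 counts in the female and 32, 6 and 22 in the male samples, and its other ID had 0 to 4.

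The MyoD family binds the E-box, a site with the letters CANNTG, and CAGCTG is one form of it. RefSeq promoters, from 250 bases before to 50 bases after the start on GRCm38.p6, were matched for 31 of the 38 members. Both forms read the same on either strand. CANNTG was found in 26 of the 31 promoters (83.9%) against 72.3% of 32851 promoters of that length, and CAGCTG in 15 (48.4%) against 16.3%. TATAAA, the letters of a TATA box, searched on both strands, was found in 11 (35.5%) against 13.6%. These are counts of letters, with no test, and no binding was measured. The promoters below belong to the 2 developmental myosin genes that held nearly all heavy chain counts and to the 2 receptor subunits in the list, and CANNTG and forward TATAAA are in capitals. Myh3 is chr11:67078050-67078349 on the plus strand, Myh8 is chr11:67276874-67277173 on the plus strand, Chrng is chr1:87205561-87205860 on the plus strand and Chrna1 is chr2:73580289-73580588 on the minus strand.
Myh3: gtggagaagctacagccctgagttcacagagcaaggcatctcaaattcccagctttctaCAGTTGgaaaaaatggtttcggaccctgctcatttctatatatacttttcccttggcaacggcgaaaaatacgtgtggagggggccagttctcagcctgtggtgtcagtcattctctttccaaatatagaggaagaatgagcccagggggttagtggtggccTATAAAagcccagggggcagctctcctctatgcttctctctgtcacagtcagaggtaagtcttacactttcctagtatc
Myh8: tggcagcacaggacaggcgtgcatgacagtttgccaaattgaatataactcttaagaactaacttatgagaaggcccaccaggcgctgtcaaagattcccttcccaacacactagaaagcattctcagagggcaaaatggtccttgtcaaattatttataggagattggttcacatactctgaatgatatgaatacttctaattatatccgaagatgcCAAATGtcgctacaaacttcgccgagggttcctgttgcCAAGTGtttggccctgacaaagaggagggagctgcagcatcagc
Chrng: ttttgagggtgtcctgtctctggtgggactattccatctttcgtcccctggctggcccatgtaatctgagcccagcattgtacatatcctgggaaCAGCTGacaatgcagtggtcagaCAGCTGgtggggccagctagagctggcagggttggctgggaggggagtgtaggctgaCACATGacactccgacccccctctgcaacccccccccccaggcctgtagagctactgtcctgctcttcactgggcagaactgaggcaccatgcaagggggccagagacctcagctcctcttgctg
Chrna1: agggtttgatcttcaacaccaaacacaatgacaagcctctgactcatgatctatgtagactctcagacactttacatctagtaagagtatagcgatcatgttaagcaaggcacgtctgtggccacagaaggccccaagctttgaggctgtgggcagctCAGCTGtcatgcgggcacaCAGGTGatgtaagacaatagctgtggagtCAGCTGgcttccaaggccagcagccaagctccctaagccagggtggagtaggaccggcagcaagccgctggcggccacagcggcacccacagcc
The Myh3 promoter held a TATA box whose first base lay 29 bases before the annotated start and 1 E-box 191 bases before it. The Myh8 window held TATAAA only on the reverse strand, which is not capitalised, and 1 E-box 32 bases before and 1 beginning 6 bases after the start base. Chrng held 3 E-boxes, of which those at 155 and 132 bases before the start were CAGCTG, and Chrna1 held 3, with CAGCTG at 92 and 44 bases before the start.

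Myosin heavy chain counts were nearly all from the developmental genes. Myh3, the embryonic heavy chain, had 15207, 13982 and 24932 counts in the female samples and 18416, 13797 and 24218 in the male samples. Its mean of 2369 CPM was the 18th highest of the 23485 IDs. Myh8, the perinatal heavy chain, had 4136, 3966 and 8517 counts in the female and 6346, 4590 and 9846 in the male samples. Myh3 was above Myh8 in each of the 6 samples, by 2.51 to 3.75 times per kb. The adult fast heavy chains were far lower but above the floor in every sample. Myh1, the fast type IIx chain, had 76, 52 and 89 counts in the female and 72, 66 and 80 in the male samples. Myh2, the fast type IIa chain, had 28, 15 and 41 counts in the female and 29, 18 and 49 in the male samples. Myh4, the fast type IIb chain, had 13, 14 and 19 counts in the female and 7, 11 and 12 in the male samples. In CPM, Myh1 and Myh2 overlapped between the sexes and Myh4 did not, its 3 male samples being the lowest.

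Shares were taken over these 5 genes, which each have 1 accession and lie side by side on chromosome 11 (NCBIM37, chr11:66891802-67122136) in the order Myh3, Myh2, Myh1, Myh4, Myh8. Per kb, Myh3 made up 75.3% ± 2.64 (SD, n = 6) of the summed level and Myh8 24.3% ± 2.69. The embryonic and perinatal chains together held 99.5% ± 0.0700, and the 3 adult fast chains held 0.411% to 0.599%. The share of Myh8 was lowest in female sample 1 (20.9%) and highest in male sample 3 (28.4%), with overlap between the sexes. Myh7, the slow and cardiac beta chain, was left out because its gene has 2 accessions, with 0 to 2 counts. Heavy chain genes share long near-identical stretches, so counts of the low members are uncertain where reads could have come from a neighbour.

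**Figure D2:**
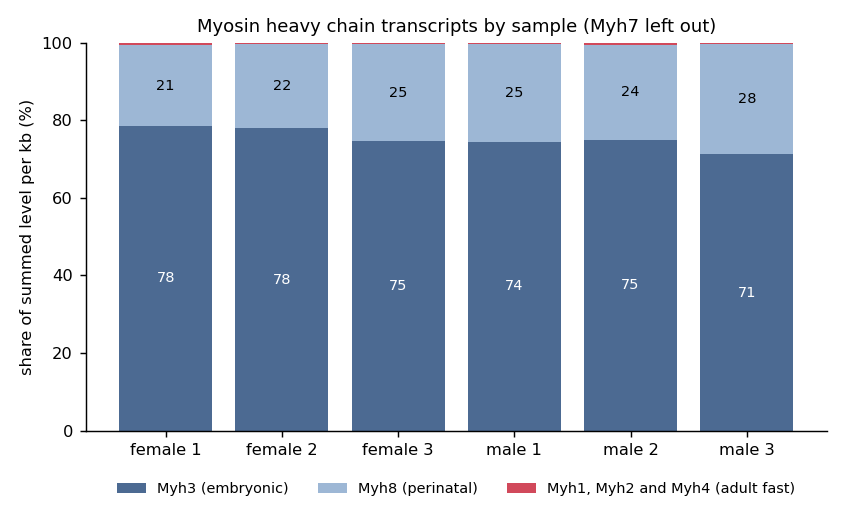
Stacked bars give, for each of the 6 samples, the percent of the summed level per kb held by Myh3, by Myh8 and by Myh1, Myh2 and Myh4 together, with Myh7 left out. Myh3 held 71.2% to 78.5% and the adult fast chains under 1% in every sample.

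Of the light chains, only 1 of the 2 Myl1 IDs was well counted. Myl1 codes for the essential light chains of fast fibres, and NM_021285 had 129, 144 and 359 counts in the female and 310, 221 and 359 in the male samples. The other ID, NM_001113387, had 22, 12 and 35 counts in the female and 6, 14 and 46 in the male samples. Since the gene has 2 accessions, the split between them was not read as a splice form ratio. Mylpf, the regulatory light chain of fast fibres, had 6, 2 and 7 counts at its higher ID in the female and 8, 5 and 10 in the male samples, and 0 to 5 at the other. Myl4, the embryonic and atrial light chain, had 0 to 5 counts at its 2 IDs.

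Among the actins, Actc1, cardiac alpha actin and the main sarcomeric actin of developing skeletal muscle, had 6328, 5699 and 12061 counts in the female and 13317, 6930 and 13742 in the male samples. Its level of 814 ± 104 CPM per kb (SD, n = 6) was the highest of the members, ranked 35th of the 21516 IDs with a length, and was 0.709 to 1.17 times that of Tubb3 per kb in the same sample. Acta1, skeletal alpha actin, had 8, 2 and 12 counts in the female and 5, 5 and 13 in the male samples. Acta1 has 2 accessions and a coding sequence close to that of Actc1, so the gap between the actins was not interpreted as isoform use. The alpha actinins anchor thin filaments at the Z-disc, and their genes each have 1 accession. Actn2 had 2565, 2324 and 4026 counts in the female and 3815, 2046 and 4264 in the male samples. Actn3, the form of fast fibres, had 158, 135 and 263 counts in the female and 229, 154 and 298 in the male samples. Per kb, Actn2 was 12.7 to 16.4 times Actn3, with no sample near equality.

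Troponin subunits of both the slow and the fast type were present. Tnnc2, the calcium-binding subunit of fast fibres, had 863, 915 and 1778 counts in the female and 2014, 1023 and 1994 in the male samples. Tnnc1, its slow and cardiac counterpart, had 617, 591 and 1179 counts in the female and 1599, 796 and 1147 in the male samples. Per kb, Tnnc2 was above Tnnc1 in all 6 samples, by 1.30 to 1.79 times, and made up 59.8% ± 2.92 (SD, n = 6) of their sum. Tnni2, the inhibitory subunit of fast fibres, had 435, 549 and 1087 counts in the female and 1288, 562 and 1247 in the male samples. Tnni1, its slow counterpart with 2 accessions, had 0 to 3 counts, so that pair was not compared.

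The giant proteins Ttn (titin), which spans from Z-disc to M-line, and Neb (nebulin), which runs along the thin filament, took many counts through their length. Ttn had 13962, 10261 and 15307 counts at NM_011652 in the female and 8978, 11632 and 21792 in the male samples. At NM_028004 it had 75, 51 and 68 counts in the female and 32, 35 and 134 in the male samples. Neb had 8059, 7352 and 11060 counts in the female and 6855, 7053 and 13560 in the male samples. In CPM, male sample 1 was the lowest of the 6 for all 3 IDs, with 927 CPM for Ttn NM_011652 against 1560 to 2258 in the other five. Per kb, Neb stood at 52.1 ± 12.0 CPM (SD, n = 6) and Ttn NM_011652 at 16.8 ± 4.65 CPM, both under Myh8 at 127 ± 21.0. Klhl41, a kelch protein that stabilises nebulin, had 517, 580 and 1091 counts in the female and 1200, 594 and 1199 in the male samples. Mybpc1, slow myosin binding protein C, had 2 to 8 counts and has 2 accessions. Ckm, muscle creatine kinase, had 787, 933 and 1665 counts in the female and 1787, 933 and 2085 in the male samples. Des, the intermediate filament of muscle, had 1563, 1400 and 3229 counts in the female and 3400, 1646 and 3494 in the male samples. Ckm, Des and Klhl41 overlapped between the sexes in CPM.

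The acetylcholine receptor of the neuromuscular junction was represented by its alpha and its fetal gamma subunit. Chrna1, the alpha subunit that binds acetylcholine, had 194, 171 and 451 counts in the female and 346, 213 and 394 in the male samples. Chrng, the gamma subunit that the adult epsilon subunit later replaces, had 198, 126 and 292 counts in the female and 276, 154 and 340 in the male samples. Both overlapped between the sexes, and Chrng was 1.48 to 2.33 times Chrna1 per kb in the same sample. In counts, Chrng was the higher only in female sample 1, so the order of the 2 genes depended on the lengths used. These were 1921 bases for Chrng and 4386 for Chrna1, taken from the longest annotated transcript of each gene. Chrne, the epsilon subunit, is not in the list but has 1 accession too, and had 6, 3 and 6 counts in the female and 0, 4 and 0 in the male samples, at or near the floor of 3 counts.

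For calcium handling, Atp2a1, the calcium pump of the sarcoplasmic reticulum in fast fibres, had 974, 790 and 1797 counts in the female and 1951, 852 and 1983 in the male samples. Ryr1, the calcium release channel, had 1694, 1042 and 2189 counts in the female and 1447, 1281 and 2862 in the male samples. Both overlapped between the sexes, and male sample 1 was again the lowest in CPM for Ryr1, whose transcript is 15362 bases long. Cacna1s, the voltage sensor, had 0 to 2 counts and Casq2, a calcium-storing protein, 0 or 1, and both genes have 2 accessions.

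**Figure D3:**
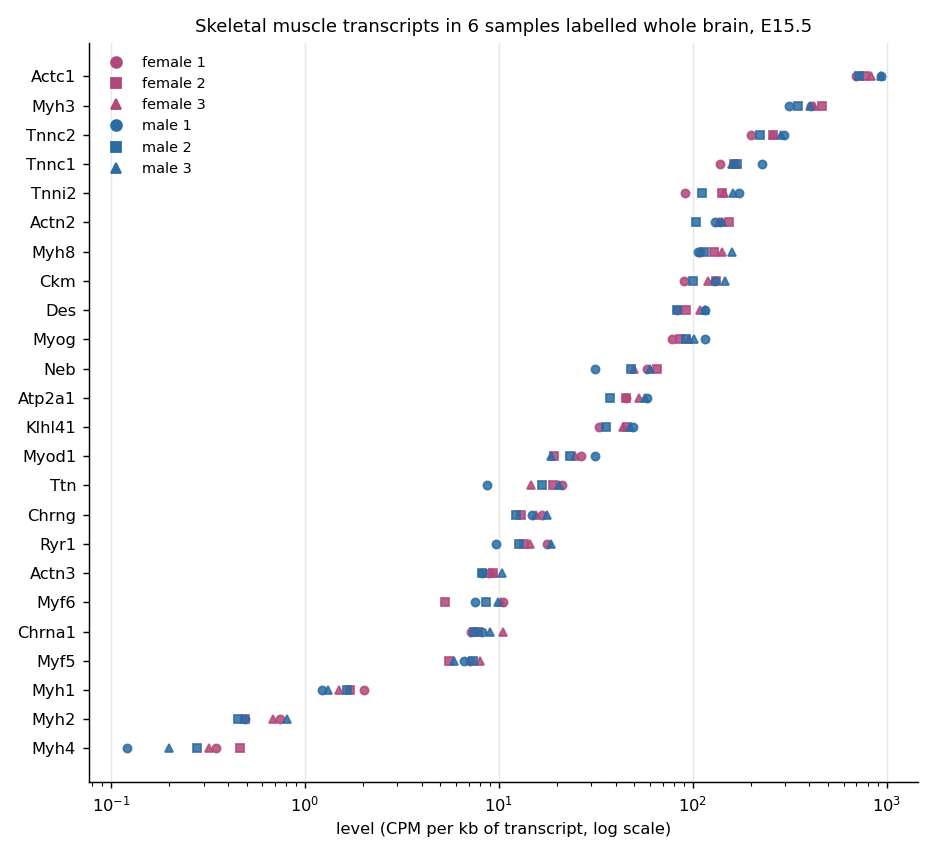
Each row is 1 member ID and each point 1 sample, placed by its level in CPM per kb of transcript on a log scale, for the 23 genes with 1 accession and Ttn NM_011652. Levels ran from 814 CPM per kb for Actc1 to 0.289 for Myh4 as means of 6 samples, and samples of both sexes are interleaved in most rows.

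The sexes were then compared, the question for which the study collected the samples. None of the 30 tested member IDs passed edgeR's quasi-likelihood test at an adjusted p under 0.05, against 4 of all 13374 tested IDs (0.0299%). At an unadjusted p under 0.05, 1 of 30 members passed, lower in males, where 11.5% of all IDs passed in either direction, 6.68% higher and 4.82% lower in males. DESeq2 also called none of the 30 at an adjusted p under 0.05, and 1 at an unadjusted p under 0.05. Log2 fold changes (male minus female) of the 30 had a median of -0.03, beside -0.01 for all tested IDs, with 13 above and 17 below 0. The CPM of the sexes did not overlap for 2 of the 30 members (6.67%), Myh3 and Myh4, against 17.1% of all tested IDs. These shares were not above those over all tested IDs.

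Myh3 was the member at the unadjusted threshold. It stood at 2459, 2787 and 2541 CPM in the female and 1902, 2105 and 2419 CPM in the male samples, so the highest male sample lay just under the lowest female sample. Its log2 fold change was -0.28 with an SE of 0.13 and an edgeR adjusted p of 0.432. With 1 sample left out at a time, the log2 fold change ran from -0.36 without male sample 3 to -0.20 without male sample 1, and the unadjusted threshold was passed only without male sample 3. Myh4, at 7 to 19 counts, had a log2 fold change of -0.93 with an SE of 0.56 and an edgeR adjusted p of 0.535. Myh8, from the same cluster of genes, had a log2 fold change of 0.01 with an SE of 0.16. Myog had the highest log2 fold change among members averaging 20 counts or more, 0.25 with an SE of 0.13 and an edgeR adjusted p of 0.483, with overlap between the sexes.

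Small differences between the sexes ran with transcript length. Among the 26 member IDs averaging at least 20 counts, all 4 IDs of 10 kb or more (Neb, Ryr1 and the 2 IDs of Ttn) had a log2 fold change below 0, from -0.38 to -0.16, while 2 of the 9 IDs of 1.5 kb or less were below 0. Across these 26 IDs the rank correlation of log2 fold change with length (Spearman's rho) was -0.68; the IDs share the 6 libraries and are not independent. Male sample 1 was the lowest of the 6 samples in CPM for 4 of the 4 long IDs and the highest for 5 of the 9 short ones, and female sample 1 was the lowest for 7 of the 9 short ones. The summed CPM of the long IDs over that of all 17 member IDs of 1.5 kb or less was 2.37, 1.96 and 1.45 in the female samples and 0.782, 1.75 and 1.72 in the male samples, so male sample 1 stood lowest and the other 2 male samples lay within the female range. Without male sample 1, the log2 fold change went from -0.27 to 0.01 for Ttn NM_011652, from -0.31 to -0.10 for Neb and from -0.16 to 0.03 for Ryr1. Without female sample 1 it was -0.15 for Ttn NM_011652, -0.31 for Neb, -0.04 for Ryr1 and 0.06 for Tnni2 (0.24 with all samples). Without male sample 3 it was -0.52 for Ttn NM_011652, -0.53 for Neb and -0.44 for Ryr1. With a trend on transcript length removed from each sample, a fit added after seeing the data, it was 0.33 for Ttn NM_011652, 0.06 for Neb, 0.15 for Ryr1 and -0.13 for Myh3, the edgeR adjusted p of Ttn being 0.536, and rho was 0.42. The part of RNA quality or library preparation in this pattern was not tested.

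**Figure D4:**
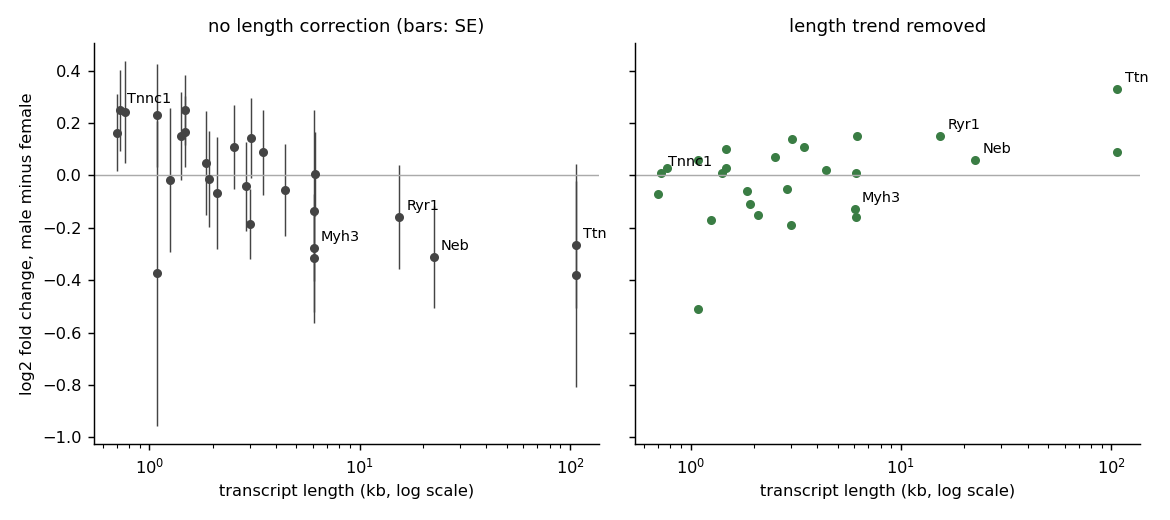
The log2 fold change (male minus female) of the 26 member IDs averaging at least 20 counts is plotted against transcript length (kb, log scale), with no length correction at left (bars are SE) and with the length trend removed at right. At left the 4 longest IDs lie below 0, and at right they lie above 0.

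Summed over the 39 IDs, the members stood at 9679, 10380 and 9551 CPM in the female and 7873, 8543 and 10720 CPM in the male samples, which was 0.946% of the summed scaled counts on average. The female mean was 9868 ± 443 CPM and the male mean 9044 ± 1487 CPM (SD, n = 3), with overlap. The highest sample was 1.36 times the lowest.

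A second list of 70 skeletal muscle genes gave 65 symbols with an ID and 50 tested IDs. None passed at an edgeR adjusted p under 0.05, 2 of the 50 (4%) passed at an unadjusted p under 0.05, both higher in males, against 11.5% of all tested IDs, and the median log2 fold change was -0.02. Cav3, the caveolin of the muscle membrane, had 183, 135 and 303 counts in the female and 375, 217 and 436 in the male samples, a log2 fold change of 0.40 with an SE of 0.16 and an edgeR adjusted p of 0.39. Cdh15, the cadherin of muscle precursor cells, had 328, 245 and 680 counts in the female and 699, 464 and 740 in the male samples, a log2 fold change of 0.34 with an SE of 0.15 and an edgeR adjusted p of 0.43. In both genes the CPM of all 3 male samples lay above that of the female samples, but neither passed after adjustment. The list summed to 1321 to 1681 CPM per sample, with male sample 2 lowest and male sample 3 highest.

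Markers of other tissues were summed in the same way. The 6 bone genes, which include the collagen gene Col1a1 shared with fibroblasts, summed to 4420 to 9330 CPM, and Ibsp, a bone matrix protein, had 2356 to 9342 counts. Other defining bone markers were low, Bglap with 2 to 9 counts and Alpl with 0 to 3, the latter in a gene with 2 accessions. Cartilage genes summed to 55.7 to 189 CPM, with Matn1, a cartilage matrix protein, at 243 to 829 counts. Other cartilage markers were lower, such as Col2a1 with 23 to 107 counts and Acan with 0 to 2, both in genes with 2 accessions. Surface epithelium summed to 786 to 1824 CPM, with 1237 to 4796 counts of Krt5, a keratin of basal cells. Krt14, on the same list, had 1 to 5 counts, in a gene with 3 accessions. Genes of meninges or fibroblasts summed to 12630 to 17400 CPM, those of smooth muscle or pericytes to 454 to 577 CPM and those of erythroid cells to 117 to 285 CPM. Male sample 3 was highest for the members, the other muscle list, bone and meninges or fibroblasts, and male sample 2 was lowest for the other muscle list, bone and surface epithelium. Male sample 1 was lowest for the members and cartilage and highest for surface epithelium, neurons, neural progenitors and smooth muscle or pericytes. Transcripts of bone, cartilage and surface epithelium were thus counted beside the muscle transcripts in all 6 samples, and their part in the muscle levels was not tested.

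Markers of heart and trunk had low summed levels. Myl7, the atrial light chain, had 2 to 4 counts and Nppa, an atrial hormone, 8 to 16, and the heart list summed to 19.7 to 28.7 CPM, of which Myl2, also a light chain of slow skeletal fibres, gave 86 to 208 counts. The trunk list of Alb, Afp, Apoa1, Sftpc, Cdx2 and Wt1 summed to 3.99 to 10.2 CPM. No comparison of trunk with head was made.

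**Figure D5:**
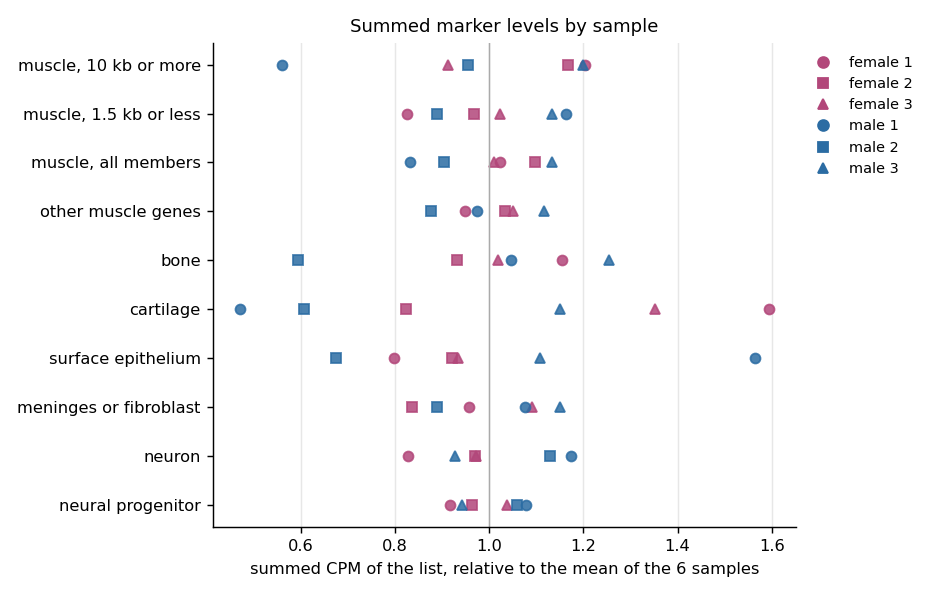
Each row is a list and each point 1 sample, placed by the summed CPM of the list divided by the mean of the 6 samples. Long and short muscle transcripts place male sample 1 at opposite ends, and the full member list varied over a narrower range than bone, cartilage or surface epithelium.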

How the data were processed

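Libraries were made by the authors with the Illumina TruSeq Stranded Total RNA kit, and reads were trimmed (Trimmomatic 0.32), aligned to mm9 (TopHat2 2.1.1), assembled (Cufflinks 2.2.1) and counted per transcript (featureCounts 1.5.1), per the labels and the methods. The deposited values are raw counts per RefSeq transcript ID in each of the 6 samples. Strand, multimapping and overlap settings are not given in the sources used here. IDs reaching 10 counts in any sample were tested with edgeR 4.0.16 (TMM, quasi-likelihood F test, Benjamini-Hochberg over all 13374 tested IDs, threshold 0.05). The study's own test was DESeq2 with RUVr. DESeq2 1.42.0 and edgeR with 1 RUVr factor were alternatives here, beside other scalings, other filters, IDs summed per gene, a replicate block, each sample left out and a length trend removed. The scripts were tested on simulated data.

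CPM used TMM-scaled totals. A prior count of 2 was used only for log2 CPM, in the length trend and in the comparison of same-numbered samples. Log2 fold changes are those of the fitted models, at the default settings of each tool. Symbols and accession numbers came from the RefSeq gene table (GRCm38.p6), lengths and NCBIM37 (mm9) positions from the longest GENCODE vM1 transcript per gene, with protein-coding transcripts first, and promoters from RefSeq (GRCm38.p6, the first listed per gene). The members and all lists were chosen with earlier results of these data known. All members were named, with counts in every sample where any had 10 or more. From the other muscle list, genes with an unadjusted p under 0.05 and a mean of at least 20 counts were named. Marker lists are given as sums with defining markers (1 list is not reported here), and Map2, Snap25, the length classes and the division by accessions were chosen after values were seen. R 4.3.3, Python 3.11.15, pandas 2.3.3, scipy 1.17.1 and matplotlib 3.10.9 were used.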

Additional observations from a re-analysis of the deposited data

How the results depend on the processing

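None of the members was called at an adjusted p under 0.05 in any alternative, and the lowest adjusted p of a member was 0.123. Over all IDs the number of calls ran from 3 with the length trend removed to 107 with DESeq2 and 276 with no low-count filter. The count of members at an unadjusted p under 0.05 was 1 in the reported fit (Myh3, lower in males), 4 with 1 RUVr factor (1 higher and 3 lower in males), 0 with filterByExpr, 0 with IDs summed per gene and 1 with the length trend removed (Ttn NM_011652, higher in males). It was 0 to 5 when each sample was left out: 0 without female sample 1 or 2 or male sample 1, 2 (both higher in males) without female sample 3 and also without male sample 2, and 5 (1 higher and 4 lower) without male sample 3. Over all tested IDs the share was 17.8% with 1 RUVr factor, 14.4% without male sample 3 and 5.61% to 16.1% without 1 of the other samples, so 4 of 30 and 5 of 29 were near it. Same-numbered samples of the 2 sexes did not deviate together (r of -0.287, -0.064 and -0.203), so no pairing by number was seen. Deviations were taken from the mean of each sex, so these r values are not independent. A shared preparation of same-numbered samples was not tested. With a replicate block the count was 0, and the block called no member. The summed level of 9456 CPM was 7087 CPM without Myh3.

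Log2 fold changes of single members changed sign in 45 of 447 alternatives, over 19 of the 30 IDs, and 402 kept it. With the length trend removed they were 0.01 for Myh2, 0.06 for Neb, 0.02 for Chrna1, 0.09 for Ttn NM_028004, 0.33 for Ttn NM_011652, 0.15 for Ryr1, -0.07 for Tnnc2 and -0.06 for Myod1. Myh8, near 0 throughout, was 0.0 with RLE factors, DESeq2 or 1 RUVr factor, -0.04 with upper-quartile factors and -0.01 with the replicate block. Myf6 was 0.03 with the replicate block, Myod1 -0.01 with upper-quartile factors, Chrng 0.01 with no low-count filter, and, with IDs summed per gene, Myl1 was 0.19 and Mylpf -0.08. Leaving out each sample gave ranges of -0.15 to 0.11 for Chrng, -1.25 to 0.10 for Myl1 NM_001113387, -0.19 to 0.07 for Myf5, -0.26 to 0.13 for Myf6, -0.44 to 0.02 for Myh2, -0.19 to 0.12 for Myh8, -0.16 to 0.02 for Actn3, -0.02 to 0.24 for Klhl41, -0.65 to 0.26 for Mymk, -0.17 to 0.14 for Chrna1, -0.52 to 0.01 for Ttn NM_011652, -0.18 to 0.22 for Myod1, -0.44 to 0.03 for Ryr1, -0.02 to 0.27 for Atp2a1 and -0.64 to 0.06 for Acta1. The cause was not tested. Isoform shares moved by less than 1 SD when not divided by length or with a sample left out. With 9 of 39 IDs under 10 counts in all samples, differences in those were not detectable at this depth.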
